A study of Mus musculus with 8 samples.

Results

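The IGF binding proteins (Igfbp1 to Igfbp7) are a family of secreted proteins, and all 7 of their genes were found by name among the 54139 genes of the deposited tables. The members were chosen by gene name alone, but the family was put forward with the cKO and WT expression values of these libraries known, so the differences between groups below are a description and support nothing beyond themselves. RNA was sequenced from mouse intestinal epithelial cells in 4 libraries of animals with a floxed Rictor allele and Villin-Cre (cKO) and in 4 libraries of animals with Villin-Cre alone (WT). Villin-Cre expresses Cre recombinase in the gut epithelium, so both groups carry the driver, and cells of the stroma, vessels and immune system keep Rictor in either genotype. Rictor is the defining subunit of mTOR complex 2, a kinase complex downstream of the insulin and IGF1 receptors. The age, sex and strain of the mice, the gut segment, the way the cells were isolated and whether each library is a separate mouse were not stated in the labels, so the tests measure the spread between libraries, part of which may be technical.

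IGF binding proteins hold IGF1 and IGF2 in blood and tissue, and in this way lengthen the life of the ligands and limit or deliver them to the IGF1 receptor. Proteases such as Pappa release the ligand by cutting the binding protein, and several members also act on cells without binding IGF. Igfbp1 is known from liver as a gene that insulin represses through Akt and the FoxO factors, Igfbp3 carries most circulating IGF in a complex with Igfals, and Igfbp4 is a transcript of Lgr5-positive crypt stem cells in the mouse intestine. Igfbp5, Igfbp6 and Igfbp7 are abundant in stromal and vascular cells of many tissues, and Igfbp7 differs from the other 6 in its weak affinity for IGF.

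The genes lie in pairs and singly. On mouse build GRCm38, Igfbp1 (chromosome 11, 7197782 to 7202546, plus strand) and Igfbp3 (chromosome 11, 7206086 to 7213923, minus strand) face each other with 3539 bases between their ends. Igfbp2 (chromosome 1, 72824503 to 72852474, plus strand) and Igfbp5 (chromosome 1, 72857932 to 72874884, minus strand) form a second convergent pair with a gap of 5457 bases. Igfbp4 (chromosome 11, 99041244 to 99054392, plus strand) lies between Top2a and Tns4, Igfbp6 (chromosome 15, 102144362 to 102149511, plus strand) is followed by Soat2 after 1014 bases, and Igfbp7 (chromosome 5, 77349240 to 77408041, minus strand) overlaps the end of Polr2b on the opposite strand by 85 bases. All 7 are protein coding, and the longest annotated transcript has 4 exons in Igfbp1, Igfbp2, Igfbp4, Igfbp5 and Igfbp6, 5 in Igfbp3 and 6 in Igfbp7.

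Of the members, 3 are shown by the 250 bases before their RefSeq start: Igfbp4, because it supplied most of the family's RNA here, Igfbp1, because it is the member known as a FoxO target, and Igfbp6, because its few reads lay mostly in cKO. The windows are chr11:99040994-99041243 for Igfbp4, chr11:7197537-7197786 for Igfbp1 and chr15:102143936-102144185 for Igfbp6, all on the plus strand of GRCm38.p6, and capitals mark a match to a searched motif on either strand.
Igfbp4: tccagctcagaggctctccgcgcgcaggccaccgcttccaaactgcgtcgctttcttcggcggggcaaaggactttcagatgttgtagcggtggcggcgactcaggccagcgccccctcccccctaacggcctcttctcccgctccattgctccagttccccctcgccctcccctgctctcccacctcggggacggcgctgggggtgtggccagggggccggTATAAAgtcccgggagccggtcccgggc
Igfbp1: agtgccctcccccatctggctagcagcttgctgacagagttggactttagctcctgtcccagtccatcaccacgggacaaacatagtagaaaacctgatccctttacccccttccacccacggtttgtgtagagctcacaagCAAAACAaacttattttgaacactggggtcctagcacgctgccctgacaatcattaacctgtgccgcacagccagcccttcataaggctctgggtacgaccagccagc
Igfbp6: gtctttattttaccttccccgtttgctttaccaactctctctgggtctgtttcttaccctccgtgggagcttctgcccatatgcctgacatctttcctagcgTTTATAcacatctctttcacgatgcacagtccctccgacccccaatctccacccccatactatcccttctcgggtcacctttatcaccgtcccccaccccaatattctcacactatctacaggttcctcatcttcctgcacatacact

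The motifs searched were TATAAA (the TATA box), CAAAACA (the core of the insulin response element) and GTAAACA (a FoxO core), which share no overlapping match in these windows. Igfbp4 has TATAAA with its first base 28 bases before the start, the usual place of a TATA box, and Igfbp6 has it on the opposite strand, 148 bases before the start. Igfbp1 has CAAAACA, first base 108 bases before the start. GTAAACA was found in none of the 8 windows of the 7 genes, Igfbp2 having 2 starts. Among all 32851 windows of this length, 12.4% hold TATAAA, 5.56% hold CAAAACA and 3.17% hold GTAAACA, and a match of letters is a description and not a bound site.

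Total counts ran from 15110451 to 18351748 in cKO and from 15982538 to 18708335 in WT. Rictor, the targeted gene, was at 30.4, 39.5, 20.8 and 40.5 CPM (counts relative to the TMM-scaled library total) in cKO libraries 1 to 4, against 41.7, 42.3, 57.3 and 51.3 CPM in WT libraries 1 to 4. The highest cKO library was below the lowest WT library, with a log2 fold change of -0.55 ± 0.20 (SE) that did not pass the test (edgeR quasi-likelihood adjusted p = 0.921). Reads from exons outside the deleted part are counted too, so this level is not that of the intact transcript. Library 3 of cKO stood apart: transcript GC content and length accounted for 29.3% of the variance of its deviations from the gene means, against at most 4.09% in any other library. Over all genes, 2 of the 14701 that passed the filter on low counts were called at an adjusted p of 0.05, which is 0.0136%, 1 higher and 1 lower in cKO.

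Epithelial markers (Epcam, Cdh1, keratins 8, 18, 19 and 20, Vil1 and Cldn7) summed to 4214 to 5668 FPKM in cKO and 4406 to 4870 FPKM in WT. FPKM is the level scaled by gene length and by a library total close to the TMM-scaled one. The labelled cell type was thus present in every library. Stromal RNA was scarce. The 35 markers of fibroblasts, endothelium, smooth muscle, pericytes, glia and neurons together had 206, 205, 200 and 194 counts in cKO libraries 1 to 4 and 180, 177, 224 and 149 counts in WT libraries 1 to 4. Immune cells were present and uneven, since 10 T cell markers summed to between 138 and 484 FPKM in cKO and between 111 and 384 FPKM in WT.

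Igfbp4 was the one member at an appreciable level. It stood at 12.8 ± 2.94 FPKM in cKO and 7.34 ± 0.955 FPKM in WT (SD, n = 4 each), and over all 8 libraries its mean of 10.1 FPKM ranked 4973 among the 54139 genes. The next member, Igfbp7, averaged 0.289 FPKM, 34.9-fold less, and the ranges of these neighbours did not overlap. Below it came Igfbp3 at 0.254 ± 0.142, Igfbp6 at 0.236 ± 0.234, Igfbp2 at 0.103 ± 0.0979, Igfbp1 at 0.0389 ± 0.0624 and Igfbp5 at 0.0205 ± 0.00822 FPKM (mean ± SD over 8 libraries). Each of these neighbours overlapped the next in range, so their order is not separable beyond the spread, and without both libraries 3 Igfbp1 falls below Igfbp5.

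Igfbp4 therefore made up nearly all of the family's RNA in each library. Its share of the family's summed FPKM was 84.5%, 93.2%, 92.0% and 90.0% in cKO libraries 1 to 4 and 89.5%, 94.6%, 93.6% and 97.0% in WT libraries 1 to 4. The groups overlap in this share. The other 6 members had 44, 30, 45 and 41 counts together in cKO libraries 1 to 4, against 44, 16, 13 and 14 counts in WT libraries 1 to 4. Only 2 members, Igfbp4 and Igfbp3, passed the filter on low counts and were tested, so the other 5 have ratios of summed counts with intervals that cover counting error only.

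**Figure D1:**
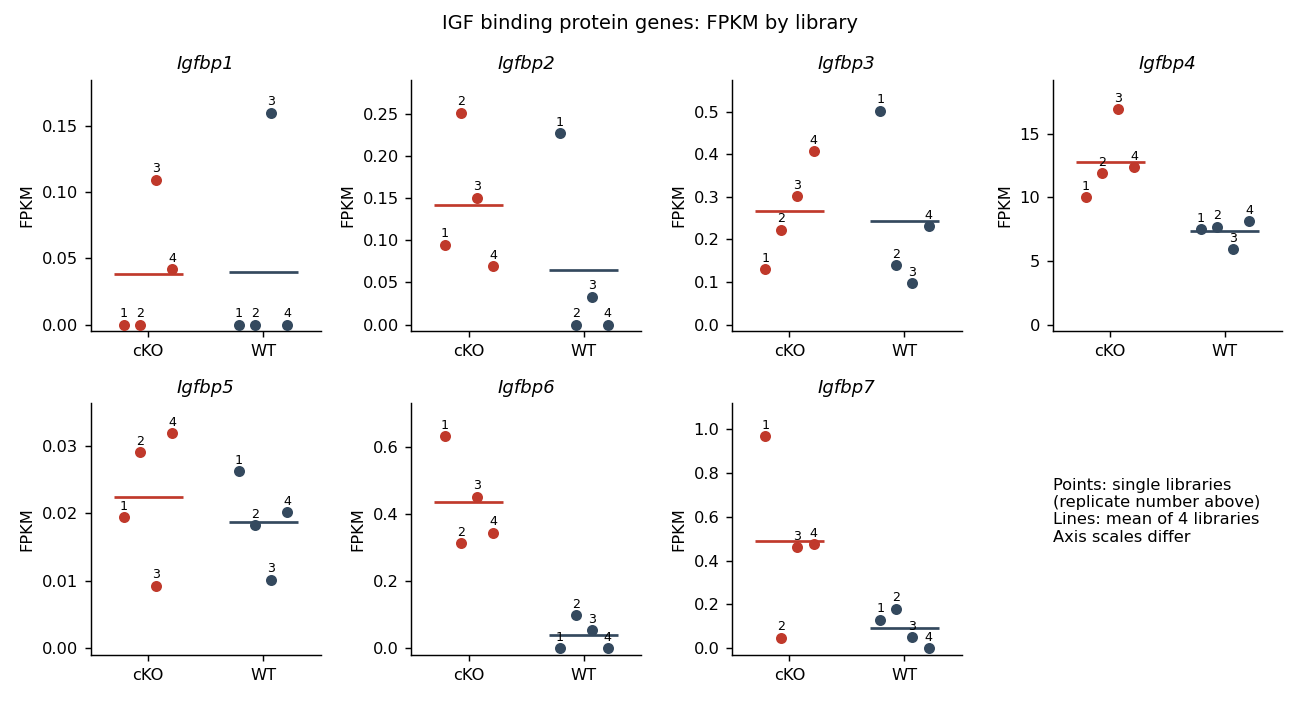
Level of the 7 IGF binding protein genes in FPKM (y axis, scales differ between panels) in the 4 cKO libraries (left, red) and the 4 WT libraries (right, grey), with the replicate number above each point and a line at the group mean. Igfbp4 lies between 10.03 and 16.96 FPKM in cKO and between 5.96 and 8.16 FPKM in WT, while the other 6 genes stay under 1 FPKM in every library.

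Igfbp4 encodes a binding protein that mostly inhibits IGF action until Pappa cuts it, and that was also described as an inhibitor of canonical Wnt signalling. It had 44.8, 53.5, 75.5 and 54.9 CPM in cKO libraries 1 to 4, against 33.6, 34.3, 26.6 and 36.4 CPM in WT libraries 1 to 4. Every cKO library was above every WT library, cKO library 3 being the highest of all and WT library 3 the lowest. The same separation upwards was seen in 1.41% of all tested genes, and a separation in either direction in 3.22%. The closest libraries were cKO library 1, with a 95% Poisson interval of 41.7 to 48.1 CPM, and WT library 4, with one of 33.5 to 39.4 CPM, so the gap exceeded counting error.

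The log2 fold change of Igfbp4 was 0.80 ± 0.16 (SE), a 1.75-fold higher level in cKO. It ranked 17th of 14701 genes by p but did not pass the adjusted threshold (edgeR adjusted p = 0.386 over all genes). Its biological coefficient of variation in edgeR was 17.8%, against 17.6% on the trend of all genes. The fit draws this estimate towards the trend, so their closeness is partly built in. The plain coefficient of variation of CPM was 22.7% in cKO and 13.0% in WT. The call depended on the method. Igfbp4 passed with the DESeq2 Wald test (adjusted p = 0.00943), which called 41 genes, without a filter in edgeR (adjusted p = 0.0188, 10 genes called) and with limma voom and sample quality weights (adjusted p = 0.0476, 8 genes called). Over the 20 alternatives its adjusted p ran from 0.00943 to 0.897 and its log2 fold change from 0.55 to 0.91, the lowest being without both libraries 3.

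**Figure D2:**
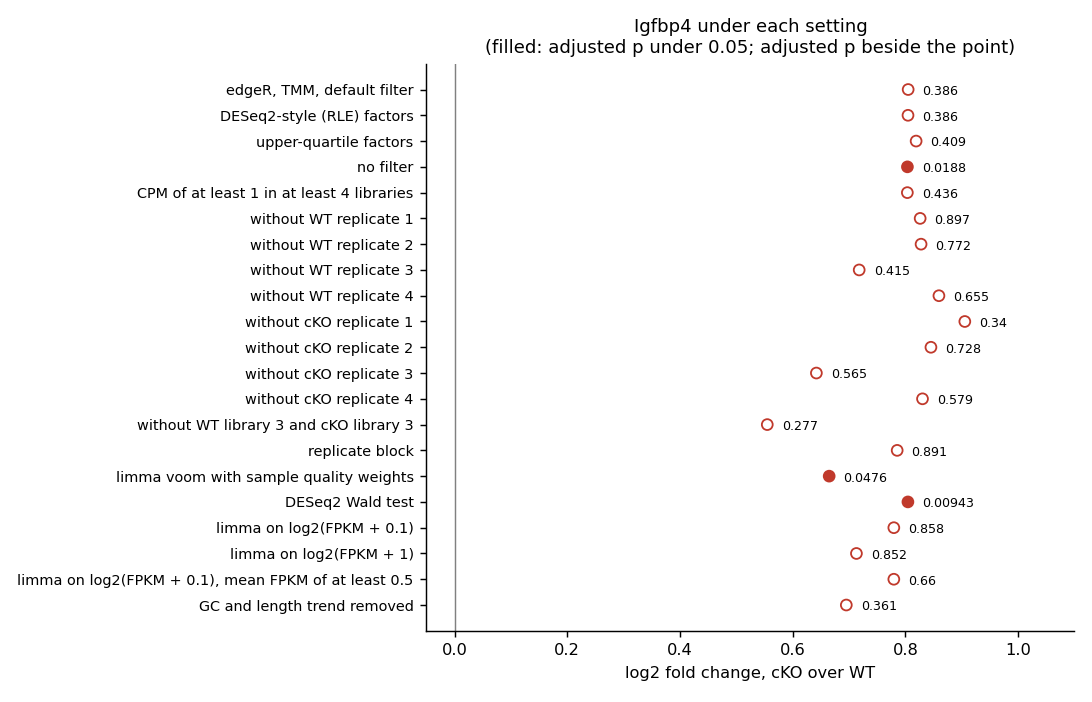
Log2 fold change of Igfbp4, cKO over WT (x axis), in the reported fit (top) and in 20 alternatives (rows), with the adjusted p of edgeR, limma or DESeq2 beside each point and filled points where it is under 0.05. All estimates lie between 0.55 and 0.91 and 3 of the alternatives are filled.

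In bulk RNA a different number of cells of a type and a different amount of RNA per cell cannot be told apart, so the levels of cell type markers are set beside Igfbp4. The 7 crypt base stem cell markers summed to 901, 1255, 1020 and 1202 FPKM in cKO libraries 1 to 4 and 1349, 1283, 1145 and 1367 FPKM in WT libraries 1 to 4, a sum dominated by Olfm4. Lgr5, the receptor that defines these stem cells, was at 4.71 ± 1.12 FPKM in cKO and 4.18 ± 0.998 FPKM in WT, Olfm4 at 880 ± 125 FPKM in cKO and 1062 ± 71.5 FPKM in WT, and the stem cell transcription factor Ascl2 at 10.5 ± 2.44 FPKM in cKO and 7.86 ± 1.46 FPKM in WT (SD, n = 4 each). By edgeR 0 of the 7 markers were called and 0 had an unadjusted p under 0.05, DESeq2 called 0, and their median log2 fold change was 0.12, against 0.0022 over all genes tested. Olfm4 had a lower mean in cKO and Lgr5 and Ascl2 a higher one, so these markers did not lie on 1 side.

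Markers of 4 other compartments are given beside Igfbp4. The 8 enteroendocrine markers summed to between 354 and 394 FPKM in cKO and between 272 and 349 FPKM in WT, without overlap. By edgeR 0 of the 8 were called and 4 had an unadjusted p under 0.05, and DESeq2 called 1, the hormone gene Sst. Over all genes 3.90% had an unadjusted p under 0.05, DESeq2 called 41, and 1.41% of single genes were separated upwards. The T cell sum was 350, 138, 484 and 166 FPKM in cKO libraries 1 to 4. In WT libraries 1 to 4 it was 143, 111, 200 and 384 FPKM. All 10 T cell markers had a higher estimate in cKO, with a median log2 fold change of 0.40, and edgeR called 0. Of the 14701 genes tested, 7419 had a higher estimate in cKO. The 6 macrophage markers found among the 7 listed summed to between 6.15 and 18.4 FPKM in cKO, with cKO library 3 highest, and to between 6.40 and 9.03 FPKM in WT, most of it from Cd14 (mean 6.59 FPKM). The other macrophage genes had more counts in cKO: the complement gene C1qa had 61 in cKO and 20 in WT, without overlap in scaled value, C1qb 42 in cKO and 10 in WT, and the receptor gene Csf1r 87 in cKO and 27 in WT, with the highest counts of each in cKO libraries 1 and 3. Of these 3, the filter kept only Csf1r, which was not called (edgeR adjusted p = 0.921). Enterocyte markers were at 3752 to 5920 FPKM in cKO and 3161 to 9040 FPKM in WT, with WT library 3 highest, where Igfbp4 was lowest. The part of these compartments in the Igfbp4 difference was not tested.

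The Igfbp4 transcript has a GC content of 55.1%, above 79.3% of the tested genes, and cKO library 3 was enriched in GC-rich transcripts. With the trend on GC content and length removed from each library, an alternative chosen after seeing the data, Igfbp4 was at 0.70 (edgeR adjusted p = 0.361), and without cKO library 3 it was at 0.64 (edgeR adjusted p = 0.565). Of the genes on either side, Top2a, 17054 bases away, was at -0.12 ± 0.15 and Tns4, 11285 bases away, at 0.16 ± 0.14 (log2 fold change ± SE, edgeR adjusted p = 0.924 and 0.921).

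The genes whose log2 CPM followed Igfbp4 most closely over the 8 libraries were Ssbp2, a single-stranded DNA binding protein of transcription complexes, with a Pearson correlation of 0.983 (Spearman 0.905), Myc, the growth-promoting transcription factor and Wnt target, with 0.970 (0.905), and Rnf126, a ubiquitin ligase, with 0.966 (0.976). These are the top 3 of 12391 genes compared, 53 of which reached 0.9, and the 8 points share library depth and the features of libraries 3. Myc was at 96.1, 105, 116 and 96.4 CPM in cKO libraries 1 to 4, against 86.5, 80.8, 73.2 and 84.0 CPM in WT libraries 1 to 4. Like Igfbp4 it was highest in cKO library 3 and lowest in WT library 3, without overlap between groups. The same held for Ssbp2 and Rnf126. The 3 genes were picked by their correlation with Igfbp4 over these same libraries, so this likeness follows from the choice. Among all tested genes, 1.41% were separated upwards. Ssbp2 averaged 2.07 CPM in cKO and 1.07 CPM in WT, and Rnf126 63.1 CPM in cKO and 54.7 CPM in WT. None of the 3 passed the edgeR test (adjusted p = 0.921 each).

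**Figure D3:**
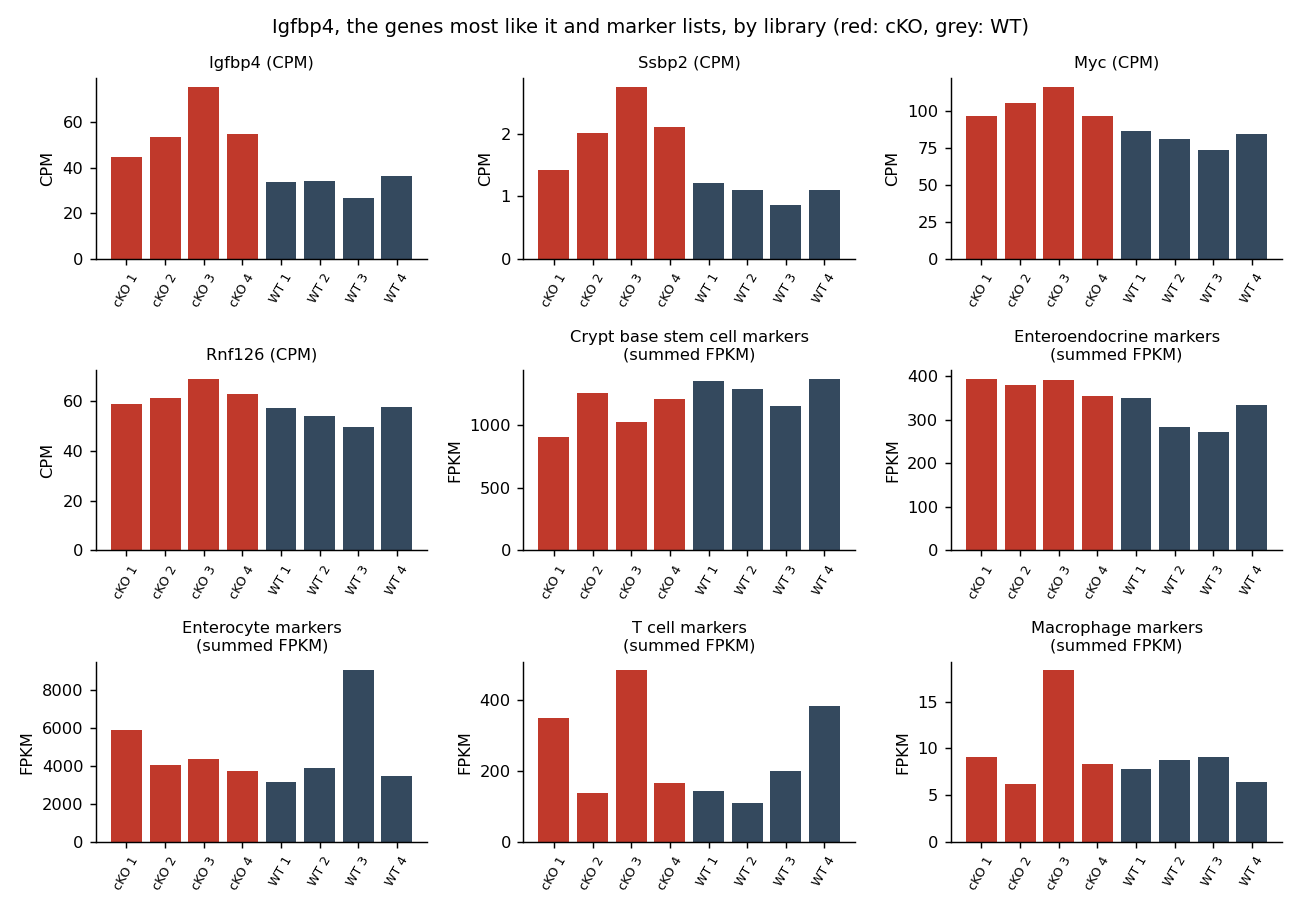
Values by library (x axis, cKO libraries red and left, WT libraries grey and right) of Igfbp4 and the 3 genes most like it in CPM, and of 5 marker lists as summed FPKM. Igfbp4 is highest in cKO library 3 at 75.5 CPM and lowest in WT library 3 at 26.6 CPM, and the sums of T cell and macrophage markers peak in cKO library 3 while the enterocyte sum peaks in WT library 3.

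Igfbp3, the main carrier of IGF in blood, was low in both groups and varied widely within them. It had 7, 12, 17 and 20 counts in cKO libraries 1 to 4, against 30, 8, 5 and 12 counts in WT libraries 1 to 4, so the highest and the lowest value were both in WT. Its level was 0.839 ± 0.368 CPM in cKO and 0.768 ± 0.575 CPM in WT (SD, n = 4 each), with a log2 fold change of 0.11 ± 0.52 (SE; edgeR adjusted p = 0.975). The biological coefficient of variation was 45.3%, against 35.4% on the trend. The sign was not stable, since the log2 fold change was 0.76 without WT library 1, -0.085 without WT library 2, -0.14 without WT library 3 and -0.15 without cKO library 4.

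Igfbp6, which prefers IGF2 over IGF1, was detected mainly in cKO. It had 12, 6, 9 and 6 counts in cKO libraries 1 to 4, against 0, 2, 1 and 0 counts in WT libraries 1 to 4. No WT library reached the lowest cKO library, as was the case upwards for 0.928% of the 13040 genes with a count that the filter left out. Such a separation needs a count in every cKO library. The share includes genes with too few counts for that, so it is lower than among genes with enough counts. The 33 counts in cKO against 3 in WT give a ratio of 11.4 with an exact 95% interval of 3.57 to 58.0 for counting error alone, which leaves out the spread between libraries. A count of 0, as in WT libraries 1 and 4, allows up to 0.195 and 0.225 CPM there by the 95% Poisson interval. The lowest cKO value, 0.354 CPM in library 2, has a 95% Poisson interval of 0.130 to 0.770 CPM. That of WT library 2 reaches 0.399 CPM, so the closest libraries are not separated beyond counting error. Without a filter on low counts edgeR gave Igfbp6 an adjusted p of 0.315, so it was not called, and all cKO levels were under 1 FPKM. Without WT library 2 the ratio rests on a single WT count and its log2 value is 4.66 in place of 3.51.

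Igfbp7, a secreted protein of vascular and stromal matrix, had 20, 1, 10 and 9 counts in cKO libraries 1 to 4, against 3, 4, 1 and 0 counts in WT libraries 1 to 4. The groups overlap because cKO library 2 had 1 count, while the other 3 cKO libraries exceeded all WT libraries. The 40 counts in cKO against 8 in WT give a ratio of 5.17 (exact 95% interval 2.39 to 12.8, counting error only), and edgeR without a filter gave an adjusted p of 0.786. The end of Igfbp7 overlaps Polr2b, which had 13381 counts over the 8 libraries, and without strand the reads in the shared 85 bases cannot be assigned. Polr2b itself was at 97.1 CPM in cKO and 98.6 CPM in WT.

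Markers of stromal cells were set beside these low counts. The 9 fibroblast markers summed to 0.175 to 0.306 FPKM in cKO and 0.0695 to 0.409 FPKM in WT, and the 8 endothelial markers to 0.804 to 1.04 FPKM in cKO and 0.699 to 1.39 FPKM in WT, so both sums overlapped. Smooth muscle markers lay at 0.258 to 0.482 FPKM in cKO and 0.291 to 0.671 FPKM in WT, pericyte markers at 0.389 to 0.732 FPKM in cKO and 0.359 to 0.467 FPKM in WT, and glial and neuronal markers at 0.125 to 0.340 FPKM in cKO and 0.252 to 0.409 FPKM in WT. Among the 35 single markers, 3 (Dcn, Myh11 and Notch3, named after their values were seen) were higher in every cKO library than in any WT library by scaled value, and 1 (S100b) was lower in every cKO library, beside 1.41% of the tested genes and 0.928% of the untested genes separated upwards. The untested share includes genes with too few counts to be separated. Dcn, a proteoglycan of fibroblasts, had 10, 5, 10 and 5 counts in cKO libraries 1 to 4, against 3, 5, 1 and 1 counts in WT libraries 1 to 4, so cKO libraries 2 and 4 tied with WT library 2 in counts and exceeded it only after scaling. Myh11, the smooth muscle myosin, had 18 counts in cKO and 1 in WT. In the other direction, the glial marker S100b had 0 counts in cKO and 13 in WT, and the fibroblast marker Dpt 3 in cKO and 12 in WT. Other fibroblast markers were Col3a1 (39 in cKO and 21 in WT), Col1a1 (12 and 9), Col6a1 (11 and 5) and Col1a2 (10 and 10). Pdgfra, a fibroblast receptor, had 6 counts in cKO and 0 in WT, and Lum had 0 in cKO and 1 in WT. Mgp had 0 counts in all libraries. Among endothelial markers, Vwf had 48 counts in cKO and 88 in WT. Tek (24 and 62), Plvap (22 and 29) and Kdr (4 and 5) also had fewer in cKO. Pecam1 (105 and 80), Egfl7 (76 and 57), Cdh5 (12 and 2) and Emcn (1 and 0) had more in cKO. Over all 35 markers the counts summed to 805 in cKO and 730 in WT. The part of stromal cells in the Igfbp6 and Igfbp7 counts was not tested.

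Igfbp2, a binding protein with preference for IGF2, had 3, 8, 5 and 2 counts in cKO libraries 1 to 4, against 8, 0, 1 and 0 counts in WT libraries 1 to 4. WT library 1 matched the highest cKO library in counts, and the groups overlapped, with a ratio of 2.07 (exact 95% interval 0.882 to 5.23, counting error only). Its log2 ratio of 1.05 became 3.77 without WT library 1, which held 8 of the 9 WT counts. Igfbp5, which binds matrix and is strongly expressed in mesenchyme, had from 1 to 3 counts in every library of either group, 9 in cKO and 8 in WT, a ratio of 1.16 (0.398 to 3.47). Its convergent neighbour Igfbp2 thus shared its low level.

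Igfbp1, the member that insulin represses through FoxO in liver, was close to absent from the counts. It had 3 counts in cKO library 3, 1 in cKO library 4 and 0 in cKO libraries 1 and 2, against 4 counts in WT library 3 and 0 in WT libraries 1, 2 and 4. The sums were 4 in cKO and 4 in WT, a ratio of 1.03 with an exact 95% interval of 0.193 to 5.55, so a change within that range was not detectable at this depth. Of the 8 reads, 7 came from libraries 3 of either group. The insulin response element core shown above therefore lies before a gene with almost no reads in these cells.

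**Figure D4:**
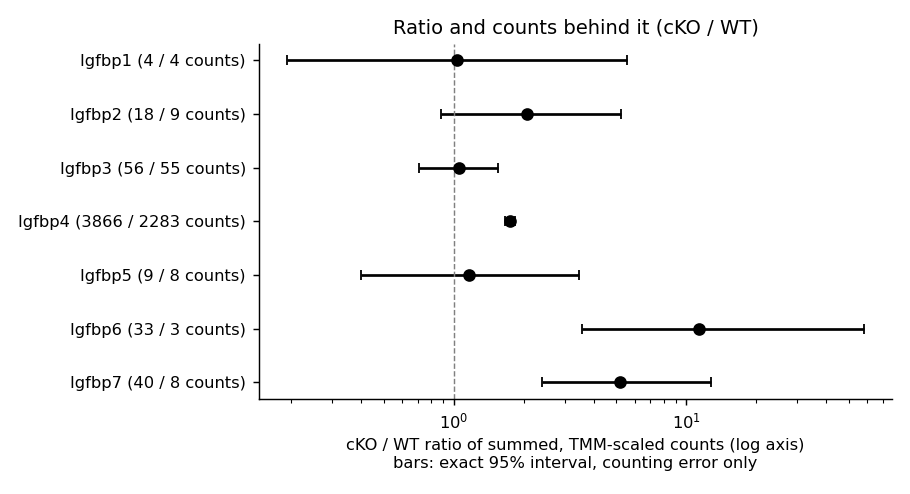
Ratio of summed, TMM-scaled counts, cKO over WT (x axis, log scale), for each IGF binding protein gene (y axis, with the summed counts in cKO and in WT), with exact 95% intervals that cover counting error only. The intervals of Igfbp4, Igfbp6 and Igfbp7 lie above 1 and those of Igfbp1, Igfbp2, Igfbp3 and Igfbp5 include 1.

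The genes of IGF1 and IGF2, the ligands that these proteins bind, were at or near 0 counts. Igf2 had 0 counts in all 8 libraries, and Igf1 had 1 count in cKO and 1 in WT. The insulin genes Ins1 and Ins2, listed beside them, also had 0 counts in all 8 libraries. Each count of 0 allows up to 3 counts per library. The receptors were present. Igf2r, which clears IGF2, was at 14.9 ± 2.01 FPKM in cKO and 15.0 ± 1.25 FPKM in WT, Insr, the insulin receptor, at 8.38 ± 0.898 FPKM in cKO and 8.41 ± 1.22 FPKM in WT, and Igf1r, the signalling receptor for both IGFs, at 2.72 ± 0.409 FPKM in cKO and 2.26 ± 0.306 FPKM in WT (SD, n = 4 each). Insrr, an alkali-sensing relative, was at 1.07 ± 0.437 FPKM in cKO and 0.979 ± 0.332 FPKM in WT. All 4 overlapped between groups, and none passed the edgeR test.

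Irs2, the adaptor of these receptors, had every cKO library above every WT library, as did Igfbp4 and 1.41% of all tested genes. Irs2 was at 13.6, 12.4, 16.5 and 14.6 FPKM in cKO libraries 1 to 4. In WT libraries 1 to 4 it was at 8.32, 7.49, 10.02 and 7.61 FPKM. The difference was 0.77 ± 0.13 on the log2 scale (SE), with an edgeR adjusted p of 0.276. Irs2 was called in 4 of the 20 alternatives, among them edgeR without a filter (adjusted p = 0.0111) and edgeR without both libraries 3 (adjusted p = 0.0432). Unlike Igfbp4, Irs2 was highest within WT in library 3. The acid-labile subunit Igfals, partner of Igfbp3 and Igfbp5 in blood, had 40 counts in cKO and 27 in WT and was not tested.

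Among the proteases, Pappa, which cuts Igfbp4 and Igfbp5, had 0 counts in cKO and 2 in WT, its relative Pappa2 was at 0.293 ± 0.0680 FPKM in cKO and 0.206 ± 0.0703 FPKM in WT, and the Pappa inhibitor Stc1 had 0 counts in all libraries. Mmp7, a Paneth cell protease that cuts several binding proteins, was the highest partner, at 239 ± 34.8 FPKM in cKO and 215 ± 83.3 FPKM in WT. The lysosomal protease Ctsd was at 41.4 ± 8.37 FPKM in cKO and 38.2 ± 3.21 FPKM in WT. Adam9, a membrane protease that can cut Igfbp5, was lower in every cKO library than in any WT library. It was at 9.97, 9.90, 7.09 and 9.19 FPKM in cKO libraries 1 to 4. WT libraries 1 to 4 were at 11.3, 11.0, 12.4 and 10.2 FPKM. The log2 fold change of Adam9 was -0.31 ± 0.13 (SE, edgeR adjusted p = 0.921). A separation in either direction was seen in 3.22% of all tested genes. Of the proteins with an IGFBP-like domain, Crim1, a membrane protein that binds BMPs, was at 7.05 ± 1.31 FPKM in cKO and 7.52 ± 1.28 FPKM in WT, and the other 11 were under 1 FPKM on average.

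Over the 38 listed ligands, receptors, adaptors, proteases and domain relatives, all of which are in the tables, 15 were tested and 0 passed the edgeR threshold in either direction, beside 0.0136% of all genes. Their median log2 fold change was 0.14, against 0.0022 over all genes tested. Of the 15, 3 (20%) had an unadjusted edgeR p under 0.05, against 3.90% of all genes tested. DESeq2 called 1, Irs2 (adjusted p = 0.000468), and limma voom with sample quality weights called 1 (Irs2, adjusted p = 0.0115). Of the 2 tested IGF binding proteins edgeR called 0, with 1 at an unadjusted p under 0.05, and DESeq2 and voom with weights called 1 each, Igfbp4. Over all genes DESeq2 called 41 of the 27741 with a count, and voom with weights called 8 of the 14701 tested.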

How the data were processed

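RNA-seq tables of 8 libraries were used, 4 cKO and 4 WT. Per the labels' protocols, an Illumina NovaSeq was used and reads went through Hisat2 and Stringtie; versions, genome build, counting program and strand setting were not stated there. The authors deposited whole-number counts per gene with no normalization and FPKM per gene. The library totals implied by the FPKM were 0.955 to 1.06 of the column totals and 1.005 to 1.015 of the TMM-scaled totals. The alternatives fitted on FPKM therefore have nearly the scaling of TMM. All 7 members have identical coordinates in GENCODE M21 (GRCm38). Sequences are from RefSeq (GRCm38.p6), with 7 of 7 members matched by symbol.

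Counts were tested with the quasi-likelihood test of edgeR 4.0.16 (R 4.3.3, robust, TMM, default filter, genotype as single term), with Benjamini-Hochberg adjustment over the 14701 genes tested at 0.05. SE is the log2 fold change divided by the square root of F. CPM uses TMM-scaled totals. Levels between genes are compared in FPKM. Ratios of summed counts have exact conditional intervals at 95%, and all intervals cover counting error only. A count of 0 is given the limit of 3 counts for the ligand genes and the upper end of the 95% Poisson interval for Igfbp6. DESeq2 1.42.0 and limma 3.58.1 served as alternatives. The edgeR step was tested on simulated data. No libraries agreed within sampling noise (lowest chi-square per degree of freedom 9.84).

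Members and gene lists were chosen with earlier results of these data known. Named were all members, partner genes with a mean FPKM of at least 1, and the 3 genes most correlated with each member of at least 1 CPM (log2 CPM, prior count 2, predicted genes left out).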

Additional observations from a re-analysis of the deposited data

Results flagged for a closer look

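In 7 of 64 sets of values, a single library was set apart from the rest of its group by most of the group's range. Of these 7, 6 were WT library 3. Chance gives about 1 in 20 for independent values with normal spread. These sets come from the same 8 libraries and some rest on few counts, so 7 of 64 cannot be compared with that rate. Igfbp1 was at 0.247 CPM in WT library 3 and at 0 in the other WT libraries, a gap of 1 of the range, which rests on 4 counts. Igfbp2 was at 0.424 CPM in WT library 1 against at most 0.0617 in the others, a gap of 0.854, which rests on 8 counts. Crim1 was at 9.42 FPKM in WT library 3 against 6.78 to 7.06, a gap of 0.893. In the same library the summed FPKM was 1.39 for endothelial markers (others 0.699 to 0.813, gap 0.834), 0.671 for smooth muscle markers (others 0.291 to 0.314, gap 0.940), 4870 for epithelial markers (others 4406 to 4444, gap 0.920) and 9040 for enterocyte markers (others 3161 to 3886, gap 0.877).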

How the results depend on the processing

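The direction of Igfbp4 held in all 20 alternatives (log2 fold change 0.55 to 0.91), and with 1 library left out it ran from 0.64 to 0.91 with no call. The number of IGF binding proteins called was 0, and 1 (Igfbp4) without a filter, with limma voom and sample quality weights and with DESeq2. The number of genes called was 2 in the reported fit, 10 without a filter, 8 with voom and weights, 41 with DESeq2, 4 without WT library 3 and cKO library 3, 0 with the replicate block, 0 with limma on log2(FPKM + 1), 0 with limma on log2(FPKM + 0.1) at a mean FPKM of at least 0.5, and 0 to 3 with 1 library left out. The cause was not tested. Igfbp3 changed sign without both libraries 3 (-0.22) and ran from -0.15 to 0.76 with 1 library left out. It was not tested at a CPM of at least 1 in 4 libraries or a mean FPKM of at least 0.5. Deviations of same-numbered libraries had correlations of -0.11 to 0.15. The best partner was the same-numbered library for replicates 3 and 4, but not for replicates 1 and 2. Such weak correlations cannot settle whether the numbers pair the samples. With the replicate block Igfbp4 was at 0.79 (edgeR adjusted p = 0.891). Rictor ran from -0.67 to -0.25, Irs2 from 0.69 to 0.87 and Adam9 from -0.36 to -0.16. Igfbp1, Igfbp2 and Igfbp5 had 27 counts or fewer over the 8 libraries, and their counting intervals include 1. Igfbp2 also varied between libraries, its log2 ratio moving to 3.77 without WT library 1. Igfbp1, without a test, was at a log2 ratio of -1.51 without cKO library 3, which held 3 of its 4 cKO counts.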

Other observations

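The marker lists that the text has not described lay in overlapping ranges. Goblet markers, led by Tff3, a peptide of the mucus layer, summed to 2631 to 3643 FPKM in cKO and 2902 to 3435 FPKM in WT. Paneth markers, led by Defa24, a defensin, summed to 20620 to 34904 FPKM in cKO and 21791 to 34723 FPKM in WT, and tuft markers, led by Avil, to 8.93 to 12.4 FPKM in cKO and 9.52 to 14.2 FPKM in WT. Markers of B and plasma cells, led by Cd79b, summed to 3.25 to 10.4 FPKM in cKO and 4.02 to 8.26 FPKM in WT. Of the 22 tested members of these 4 lists edgeR called 0, with 3 at an unadjusted p under 0.05, and DESeq2 called 0. Over all genes tested edgeR called 0.0136%, and 3.90% had an unadjusted p under 0.05.

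Mmp2, a stromal protease that cuts IGF binding proteins, had 12 counts in cKO and 1 in WT and was not tested. Every cKO library was above every WT library, as for 0.928% of the 13040 genes with a count that the filter left out, a share that includes genes with too few counts to be separated. Mmp2 was singled out after its values were seen.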
